A study of Mus musculus with 9 samples.

Results

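Mitochondrial ribosomal proteins are described here by their transcripts, as the protein-coding genes whose symbol is Mrpl or Mrps followed by a digit, with pseudogenes left out. The gene table held 78 such members of 55536 genes. By the subunit that textbook structures give them, 51 belong to the large subunit (Mrps30 and Mrps18a included, in spite of their symbols) and 26 to the small subunit. The remaining one, Mrps36, kept its symbol although it is now known as a component of the oxoglutarate dehydrogenase complex. Of the 78 members, 77 passed the filter on low counts, and Mrpl53 did not. The study asked whether oxybutynin, a muscarinic receptor antagonist that a screen for better growth had picked, alters myoblasts that lack complex III. Primary mouse myoblasts, which divide and later fuse into muscle fibres, gave 9 RNA libraries in 3 groups. KO oxybutynin cells (3 libraries) carried floxed Uqcrfs1 alleles, were labelled uqcrfs1 -/- after adenovirus for Cre, and were cultured for 5 days with 7.5 µM oxybutynin in dimethyl sulfoxide (DMSO). KO vehicle cells (3 libraries) had the same alleles and virus and received DMSO alone. Floxed vehicle cells (3 libraries) had the same alleles, labelled uqcrfs1 +/+ (floxed), and adenovirus for green fluorescent protein, with DMSO. In all 3 groups the cells were plated 72 h after the virus and treated 24 h after plating. Cre and green fluorescent protein differed between the KO and floxed groups along with Uqcrfs1, and these cannot be told apart. No floxed library with oxybutynin was analysed here. The labels do not say whether libraries of a group came from separate animals or cultures, so p-values take in only the spread among these libraries, which may be technical. In bulk RNA, fewer cells of a type and less RNA per cell cannot be told apart.

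The mitochondrial ribosome translates the few mRNAs of the mitochondrial genome, which encode core subunits of respiratory complexes I, III and IV and of ATP synthase. Its RNAs are transcribed inside the organelle, whereas all of its proteins are made in the cytosol from nuclear genes and imported. Some of these proteins descend from bacterial ribosomal proteins, and others were gained by the mitochondrial ribosome. Uqcrfs1 encodes the Rieske iron-sulfur protein, a nuclear-encoded catalytic subunit of complex III. Members sat on 17 chromosomes, and 0 were on the mitochondrial genome.

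Promoter sequence is shown first, because ETS, NRF1 and YY1 elements are the classic elements of nuclear genes for mitochondrial proteins. The RefSeq promoter table (GRCm38.p6, windows of 250 bases before to 50 after each listed start) held 69 of the 78 members. Mrpl2 had 3 windows, Mrpl48 had 4 and Mrps16 had 2, and a gene was counted if any of its windows matched. Mrpl48 and Mrps16 held the ETS core in 1 window each. The letters CCGGAAG, an ETS core, occurred on either strand in 26 of those 69 members (37.7%), against 12.9% of 17492 protein-coding genes and 9.93% of 27025 genes in that table. ATGGCGG, a core of YY1 sites, occurred in 13 members (18.8%), against 6.05% of protein-coding genes. GCGCATGCGC, the NRF1 palindrome, occurred in 3 members (4.35%), against 1.47% of protein-coding genes. CACGTG, the E-box of MYC and USF factors, occurred in 5 members (7.25%), against 8.91% of protein-coding genes. Different motifs shared no bases in any member's window, both strands were searched throughout, and a match describes letters only. The reference genes were not limited to those that passed the filter on low counts, and shares among those alone were not computed. The 4 windows below, each 230 bases from 200 before to 30 after the RefSeq start, show one member that rose with knockout (Mrps23), one that rose and has a repeated ETS core next to its start (Mrpl58), one that fell (Mrps18c) and one that was not called (Mrpl9). Capitals mark the motif letters. They lie on the plus strand at chr11:88204188-88204417 (Mrps23), chr11:115403552-115403781 (Mrpl58), chr5:100798559-100798788 (Mrps18c) and chr3:94443136-94443365 (Mrpl9).
Mrps23: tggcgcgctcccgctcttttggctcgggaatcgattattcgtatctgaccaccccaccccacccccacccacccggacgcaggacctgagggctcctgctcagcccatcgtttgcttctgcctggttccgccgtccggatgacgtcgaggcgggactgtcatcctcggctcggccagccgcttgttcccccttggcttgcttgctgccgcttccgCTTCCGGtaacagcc
Mrpl58: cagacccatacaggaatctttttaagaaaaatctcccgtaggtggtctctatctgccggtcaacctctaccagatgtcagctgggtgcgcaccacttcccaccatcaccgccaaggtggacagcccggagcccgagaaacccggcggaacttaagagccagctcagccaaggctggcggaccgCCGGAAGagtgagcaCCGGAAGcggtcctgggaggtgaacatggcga
Mrps18c: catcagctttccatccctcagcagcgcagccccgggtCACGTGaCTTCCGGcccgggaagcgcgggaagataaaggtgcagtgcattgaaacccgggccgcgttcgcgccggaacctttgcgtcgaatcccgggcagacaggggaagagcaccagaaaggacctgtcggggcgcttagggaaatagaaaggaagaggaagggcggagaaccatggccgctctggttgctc
Mrpl9: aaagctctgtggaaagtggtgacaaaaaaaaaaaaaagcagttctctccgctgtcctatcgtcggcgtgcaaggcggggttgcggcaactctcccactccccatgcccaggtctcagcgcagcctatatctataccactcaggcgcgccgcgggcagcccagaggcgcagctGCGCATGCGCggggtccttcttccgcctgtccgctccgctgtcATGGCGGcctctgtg
The ETS core began 15 bases after the start in Mrps23, on the minus strand, and 17 and 2 bases before it in Mrpl58. In Mrps18c an E-box began 163 bases before the start with an ETS core beside it, 156 bases before. Mrpl9 held the NRF1 palindrome 28 bases before its start and the YY1 core 15 bases after it.

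Uqcrfs1 had 71, 69 and 46 counts in KO oxybutynin libraries and 51, 51 and 70 in KO vehicle libraries, against 1539, 1781 and 1881 in floxed vehicle libraries. Scaled to depth, each KO library kept between 2.60% and 3.64% of the floxed mean. Library totals ran from 19604971 to 26226949 counts, of which members took 36582 to 60963. All 7 myoblast markers (Pax7, Myod1, Myf5, Des, Cdh15, Vcam1 and Itga7) had counts in every library, and their levels summed to 3642 to 3922 CPM (TMM-scaled counts-per-million) in KO oxybutynin and 2938 to 3757 CPM in KO vehicle, against 2906 to 3024 CPM in floxed vehicle. Between KO vehicle and floxed vehicle Pax7, Des and Vcam1 rose and Myf5 and Cdh15 fell, and of 4 differentiation markers Ckm and Acta1 rose and Myog and Myh3 fell. The 19 markers of fibroblasts, smooth muscle and pericytes, endothelium, leukocytes, adipocytes and Schwann cells summed to 45.9 to 49.3 CPM in KO oxybutynin and 53.0 to 59.0 CPM in KO vehicle, against 59.0 to 61.6 CPM in floxed vehicle. Of the 8 that could be tested, Cd68 (leukocytes) rose by 1.19 and Rgs5 (pericytes) fell by 0.44 on the log2 scale between KO vehicle and floxed vehicle. Of the fibroblast markers, Lum and Tcf21 were at 0 counts throughout, Dpt had at most 1 count, and Pdgfra had 42 to 74 counts per library. KO vehicle library 2 stood apart within its group. Its share of counts from the mitochondrial genome was 2.71%, against 2.04% and 1.95% in KO vehicle libraries 1 and 3, and its Rn7sk share was 2.36%, against 3.43% and 3.59%. Between the groups, the mitochondrial genome's share was 1.58 to 2.12% in KO oxybutynin, 1.95 to 2.71% in KO vehicle and 3.07 to 3.14% in floxed vehicle libraries. Rn7sk, a small nuclear RNA, took 3.36 to 3.98%, 2.36 to 3.59% and 1.93 to 2.10% in that order of groups. The part of these markers and shares in the results below was not tested.

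Summed over all members, their transcripts were more abundant in KO than in floxed libraries. Their summed level was 2486, 2373 and 2355 CPM in KO oxybutynin libraries and 2328, 1975 and 2361 CPM in KO vehicle libraries, against 1867, 1869 and 1888 CPM in floxed vehicle libraries. By this sum every KO library lay above every floxed library, and the KO vehicle group reached down towards the floxed values through its library 2 alone. The level of the median member did not keep that order. Per kilobase of exon it was 7.701 CPM in KO vehicle library 2, below the floxed libraries at 8.167 to 8.365 CPM. KO vehicle libraries 1 and 3 stood at 10.15 and 9.617 CPM, and KO oxybutynin libraries at 9.805 to 10.74 CPM. The large subunit genes summed to 1734 ± 52.1 CPM in KO oxybutynin and 1591 ± 160.0 CPM in KO vehicle, against 1342 ± 10.1 CPM in floxed vehicle (SD, n = 3 each). The small subunit genes summed to 657 ± 21.3 CPM in KO oxybutynin and 619 ± 52.6 CPM in KO vehicle, against 522 ± 2.28 CPM in floxed vehicle (SD, n = 3 each). The ratio of the large to the small sum was 2.64 ± 0.0506 in KO oxybutynin and 2.57 ± 0.0483 in KO vehicle, against 2.57 ± 0.0110 in floxed vehicle (SD, n = 3 each). The KO vehicle range of that ratio enclosed the floxed range, and the KO oxybutynin range overlapped the KO vehicle range and lay above the floxed one.

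**Figure D1:**
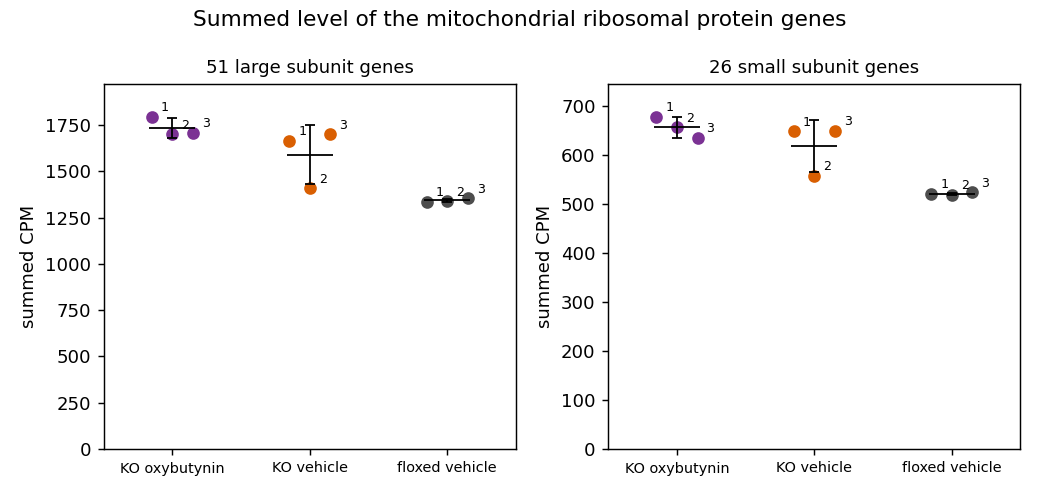
Summed CPM (TMM-scaled, vertical axis) of the 51 large subunit genes (left) and the 26 small subunit genes (right) in the 3 groups, with library numbers beside the points and the mean and SD in black. KO vehicle library 2, at 1407 CPM for the large and 559 CPM for the small subunit, is the lowest KO library in both panels and lies above all floxed libraries.

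The first comparison, KO vehicle against floxed vehicle, asked how loss of Uqcrfs1 alters these transcripts. By edgeR's quasi-likelihood test, with Benjamini-Hochberg adjustment over the 15720 genes tested and a call at an adjusted p under 0.05, 35 members rose (29.9% of all tested genes rose) and 9 fell (33.4% of all tested genes fell). Together 44 of the 77 were called, beside 63.3% of all tested genes. The other 33 tested members were not called. The median log2 fold change of the 77 members was 0.25, beside -0.01 over all tested genes. Over the 12982 tested protein-coding genes the median was 0.06, and 34.3% rose and 31.4% fell. Individual members ran from -0.89 to 0.87, so none reached a 2-fold change, and 49 of the 77 lay within 1.3-fold of no change. The SE of a member's log2 fold change had a median of 0.12 and ran from 0.07 to 0.25. Groups did not overlap for 31 members that were higher (31.2% of all tested genes) and 9 that were lower (35.5% of all tested genes), together 40 members beside 66.7% of all tested genes. Without KO vehicle library 2, 49 members were called higher (33.5% of all genes tested in that fit) and 8 lower (34.7%). After each library's dependence on GC content and exon length was removed, 24 members were called higher (25.8% of all tested genes) and 16 lower (33%). Their median was then 0.06, beside -0.07 over all tested genes and -0.04 over protein-coding genes.

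**Figure D2:**
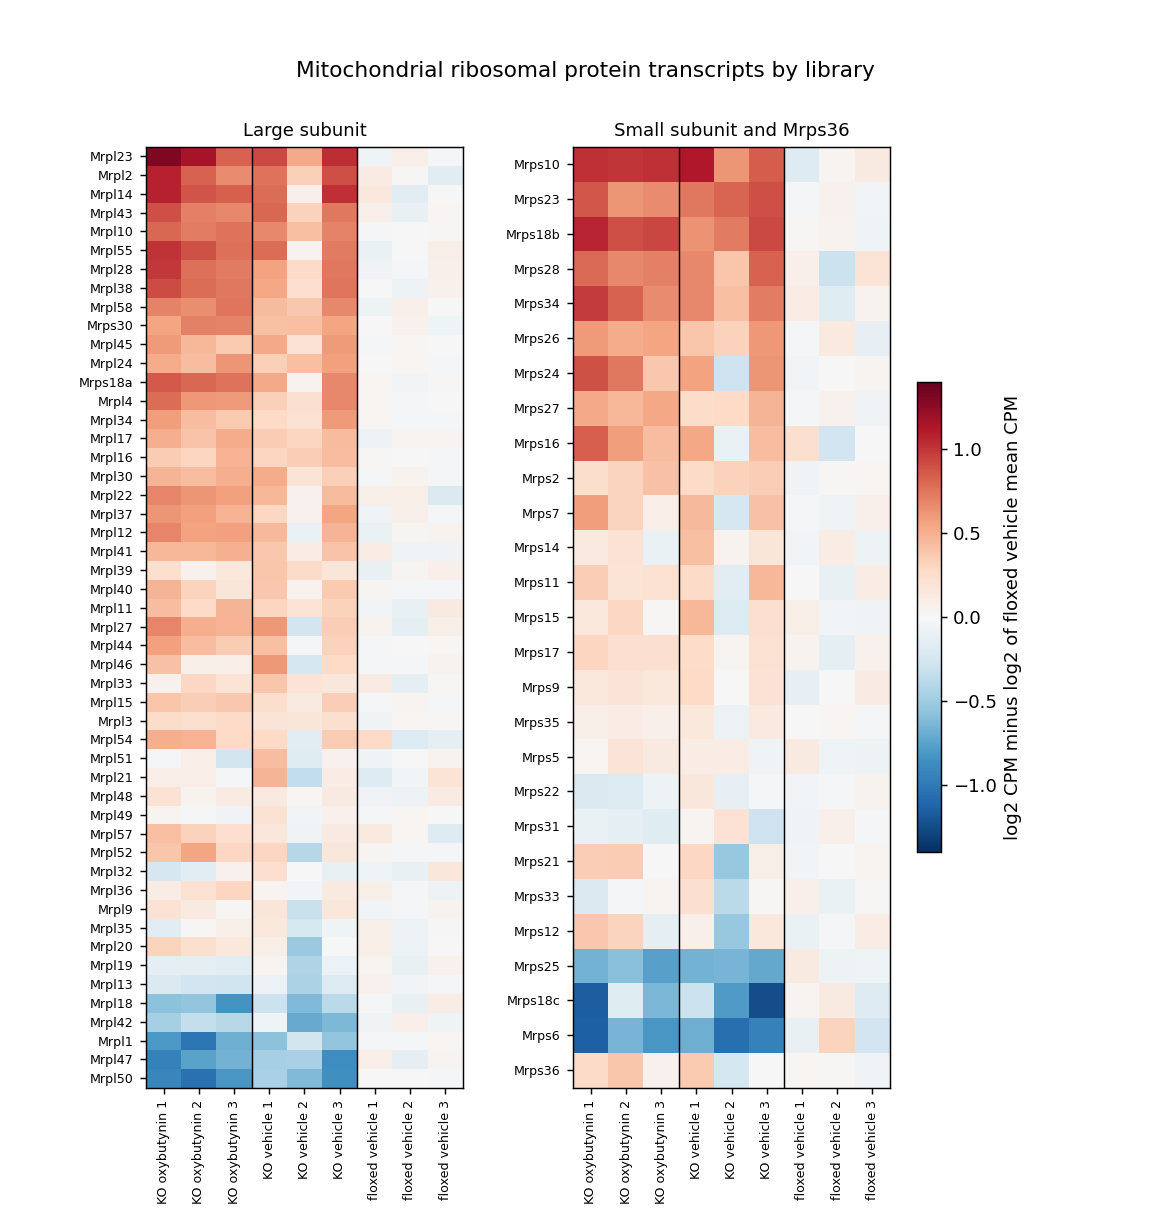
Log2 CPM of each member minus the log2 of its mean in floxed vehicle libraries, for the large subunit (left) and the small subunit with Mrps36 (right), with members in rows ordered by their change and libraries in columns, red above and blue below the floxed mean. Most rows are red across the KO libraries, a block at the bottom of each panel is blue, and KO vehicle library 2 is paler or blue in many rows. Mrpl53, with 0 counts, is not drawn.

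The 6 largest rises with knockout among called members whose groups did not overlap came from both subunits. Mrps10, the counterpart of a bacterial small subunit protein, had 19.8, 19.5 and 19.8 CPM in KO oxybutynin and 21.1, 14.9 and 17.6 CPM in KO vehicle, against 8.57, 10.0 and 10.6 CPM in floxed vehicle. Both KO groups lay wholly above the floxed group, and the log2 fold change of KO vehicle over floxed vehicle was 0.87 ± 0.13 (SE, adjusted p = 1.49e-05). Mrpl23, which lines the rim of the large subunit's exit tunnel, had 28.3, 25.4 and 20.2 CPM in KO oxybutynin and 21.6, 16.4 and 23.3 CPM in KO vehicle, against 10.9, 12.1 and 11.2 CPM in floxed vehicle. Its KO values also lay wholly above the floxed ones, at 0.84 ± 0.14 (SE, adjusted p = 5.93e-05). Mrps23, a mitochondria-specific small subunit protein, had 16.2, 13.6 and 14.1 CPM in KO oxybutynin and 14.8, 15.7 and 16.7 CPM in KO vehicle, against 8.73, 9.31 and 8.71 CPM in floxed vehicle. The KO vehicle libraries reached a log2 fold change of 0.82 ± 0.11 (SE, adjusted p = 5.91e-06) with no overlap. Mrps18b, one of the 3 Mrps18 paralogues, had 75.2, 66.9 and 68.6 CPM in KO oxybutynin and 55.5, 59.4 and 68.1 CPM in KO vehicle, against 36.3, 37 and 34.3 CPM in floxed vehicle. That was the smallest adjusted p among the members (0.77 ± 0.09, SE, adjusted p = 1.46e-06). Mrpl2, a core large subunit protein near the peptidyl transferase centre, had 31.2, 25.9 and 23.1 CPM in KO oxybutynin and 24.8, 18.4 and 27.3 CPM in KO vehicle, against 15.9, 14.8 and 13.2 CPM in floxed vehicle. It rose by 0.68 ± 0.14 (SE, adjusted p = 0.000483), and KO vehicle library 2 was the lowest KO value. Mrps28 had 7.18, 6.56 and 6.73 CPM in KO oxybutynin and 6.56, 5.39 and 7.32 CPM in KO vehicle, against 4.34, 3.35 and 4.71 CPM in floxed vehicle. This low-abundance transcript rose by 0.64 ± 0.16 (SE, adjusted p = 0.00241), again without overlap.

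The 6 largest falls by the same rule were led by small subunit genes. Mrps6, the counterpart of a bacterial small subunit protein, had 3.14, 4.40 and 3.95 CPM in KO oxybutynin and 4.33, 3.34 and 3.60 CPM in KO vehicle, against 6.43, 8.58 and 5.77 CPM in floxed vehicle. All KO libraries were below all floxed ones, with a log2 fold change of -0.89 ± 0.18 (SE, adjusted p = 0.000405) in KO vehicle. Mrps18c, another Mrps18 paralogue, had 1.63, 3.22 and 2.33 CPM in KO oxybutynin and 2.93, 2.09 and 1.54 CPM in KO vehicle, against 3.73, 3.95 and 3.20 CPM in floxed vehicle. The KO vehicle group was wholly below the floxed group at -0.74 ± 0.25 (SE, adjusted p = 0.0177), but KO oxybutynin library 2 reached the floxed range. Without KO vehicle library 3 the change of Mrps18c was -0.53 (adjusted p = 0.11), and without floxed library 2 it was -0.67 (adjusted p = 0.0621), so its call rested on single libraries. Mrps25, a mitochondria-specific small subunit protein, had 8.77, 9.28 and 8.21 CPM in KO oxybutynin and 8.80, 8.86 and 8.45 CPM in KO vehicle, against 15.1, 13.3 and 13.3 CPM in floxed vehicle. Its KO values were tightly grouped below the floxed ones, at -0.67 ± 0.11 (SE, adjusted p = 5.42e-05). Mrpl50, a mitochondria-specific large subunit protein, had 18, 16.5 and 19.3 CPM in KO oxybutynin and 24.9, 22.2 and 18.7 CPM in KO vehicle, against 34, 34.2 and 33.6 CPM in floxed vehicle. It fell without overlap, by 0.63 ± 0.11 (SE, adjusted p = 6e-05) on the log2 scale. Mrpl47 had 9.91, 11.4 and 12.1 CPM in KO oxybutynin and 13.9, 13.9 and 10.5 CPM in KO vehicle, against 20.4, 17.4 and 19.6 CPM in floxed vehicle. Its KO vehicle values lay below the floxed ones, at -0.58 ± 0.13 (SE, adjusted p = 0.00063). Mrpl1, the protein of the mobile L1 stalk beside the tRNA exit site, had 23.1, 20.0 and 25.1 CPM in KO oxybutynin and 27, 33.6 and 27.3 CPM in KO vehicle, against 39.9, 39.8 and 41 CPM in floxed vehicle. The 3 groups did not overlap at all, and the log2 fold change of KO vehicle over floxed vehicle was -0.46 ± 0.11 (SE, adjusted p = 0.00122). The other 3 falls were Mrpl42 at -0.44 ± 0.14, Mrpl18 at -0.43 ± 0.13 and Mrpl13 at -0.23 ± 0.10 (SE).

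**Figure D3:**
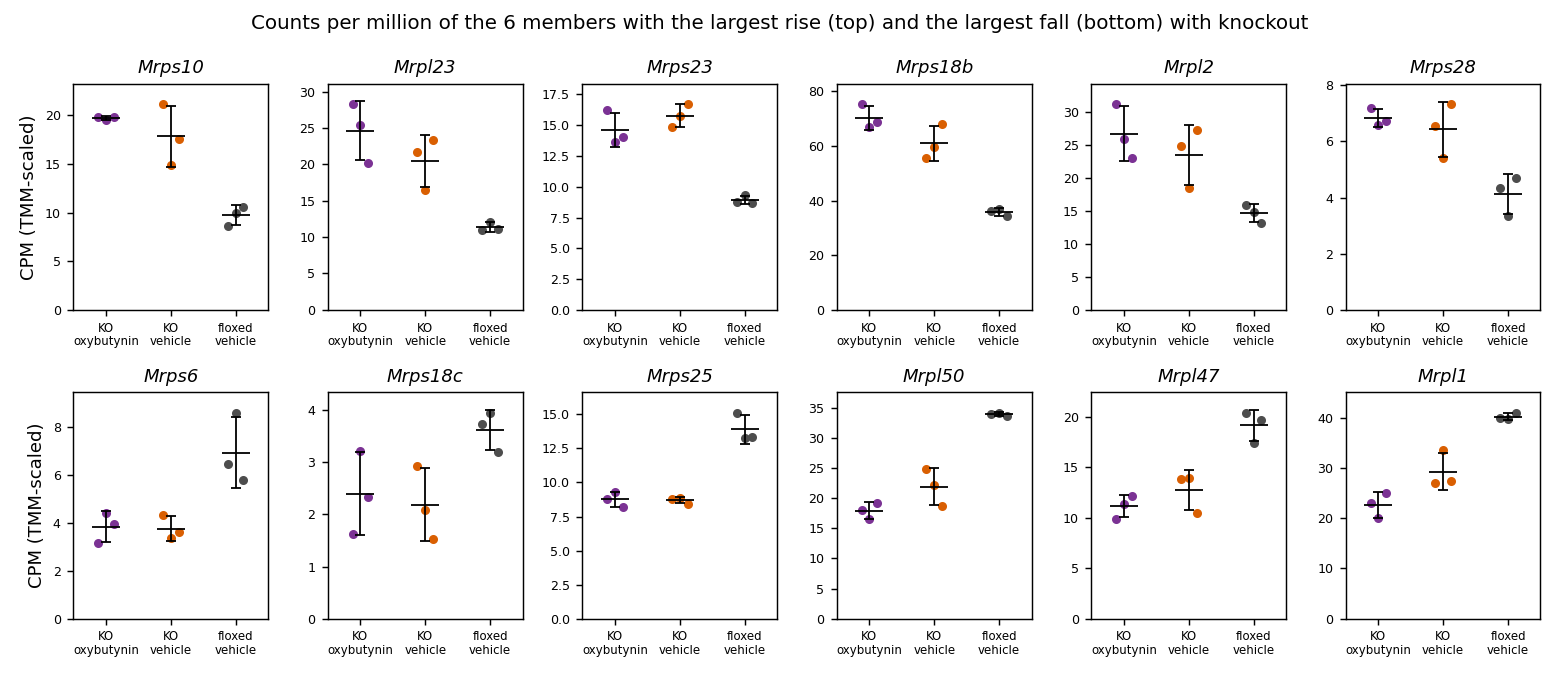
TMM-scaled CPM per library (vertical axis from 0) of the 6 members with the largest rise (top row) and the 6 with the largest fall (bottom row) between KO vehicle and floxed vehicle, among called members whose groups did not overlap, with the mean and SD in black. In each panel the KO vehicle points lie on 1 side of the floxed points, for example 14.9 to 21.1 CPM against 8.57 to 10.6 CPM for Mrps10.

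Several of these genes share exon bases with a neighbour, and whether counting used strand is not stated in the sources at hand, so reads of overlapping genes on opposite strands cannot be told apart. Of the 78 members, 33 had some exon overlap. Mrps25 shares 69.8% of its exon bases with Nr2c2 on the opposite strand, and Nr2c2 itself changed by -0.63 between KO vehicle and floxed vehicle. Mrps34, which rose by 0.61 ± 0.13 (SE), shares 63.4% with Mapk8ip3 on the opposite strand, which rose by 0.65. For Mrps6 the overlap is on the same strand: 10.4% of its bases lie in Slc5a3, which had 50615 counts over the 9 libraries, against 995 for Mrps6, and which changed by -1.90. Mrpl19, which was not called (-0.14 ± 0.11, SE), shares 36.0% with Gcfc2 on the opposite strand, which changed by -1.01. Mrpl46 and Mrps11 overlap each other on opposite strands, and neither was called. Mrps18b shares 30.5% with an antisense gene that had 28 counts in all. Mrpl53 had 0 counts in each of the 9 libraries, which allows up to 3 counts per library. It shares 88.0% of its exon bases (695 bases) with Gm42688 on the same strand, which had 82 counts in all. Mrps34 also shares 37.0% with Nme3 on the same strand, which had 0 counts. Mrps18c shares 23.2% with Gm43511 on the same strand, which changed by -0.56 without a call. On the opposite strand, Mrpl43 shares 33.4% with Twnk (0.15) and Mrpl14 11.2% with Tmem63b (0.48). Mrpl47 shares 13.9% with Ndufb5 (-0.06) and 10.2% with Actl6a (-0.20). The values of Mrps25, Mrps34, Mrps6, Mrpl19 and Mrpl53 are therefore uncertain, and those of the other overlapping members may be. The 5 pseudogene rows of the family held at most 17 counts each.

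By subunit, 27 of 50 tested large subunit members rose and 6 fell, with a median of 0.27, and 8 of 26 small subunit members rose and 3 fell, with a median of 0.20. As shares, 54% of the large and 30.8% of the small subunit members rose, beside 29.9% of all tested genes, and 12% and 11.5% fell, beside 33.4%. Of the tested protein-coding genes 34.3% rose and 31.4% fell. Large subunit proteins with a bacterial counterpart counted 17 higher and 4 lower of 30, and mitochondria-specific ones 10 higher and 2 lower of 20. In the small subunit, 3 of 16 with a bacterial counterpart rose and 2 fell, and 5 of 10 mitochondria-specific ones rose and 1 fell. Beside the members, 24 of 76 cytosolic ribosomal protein genes were called higher and 2 lower, with a median of 0.16. The differences between these groups of genes were not tested.

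**Figure D4:**
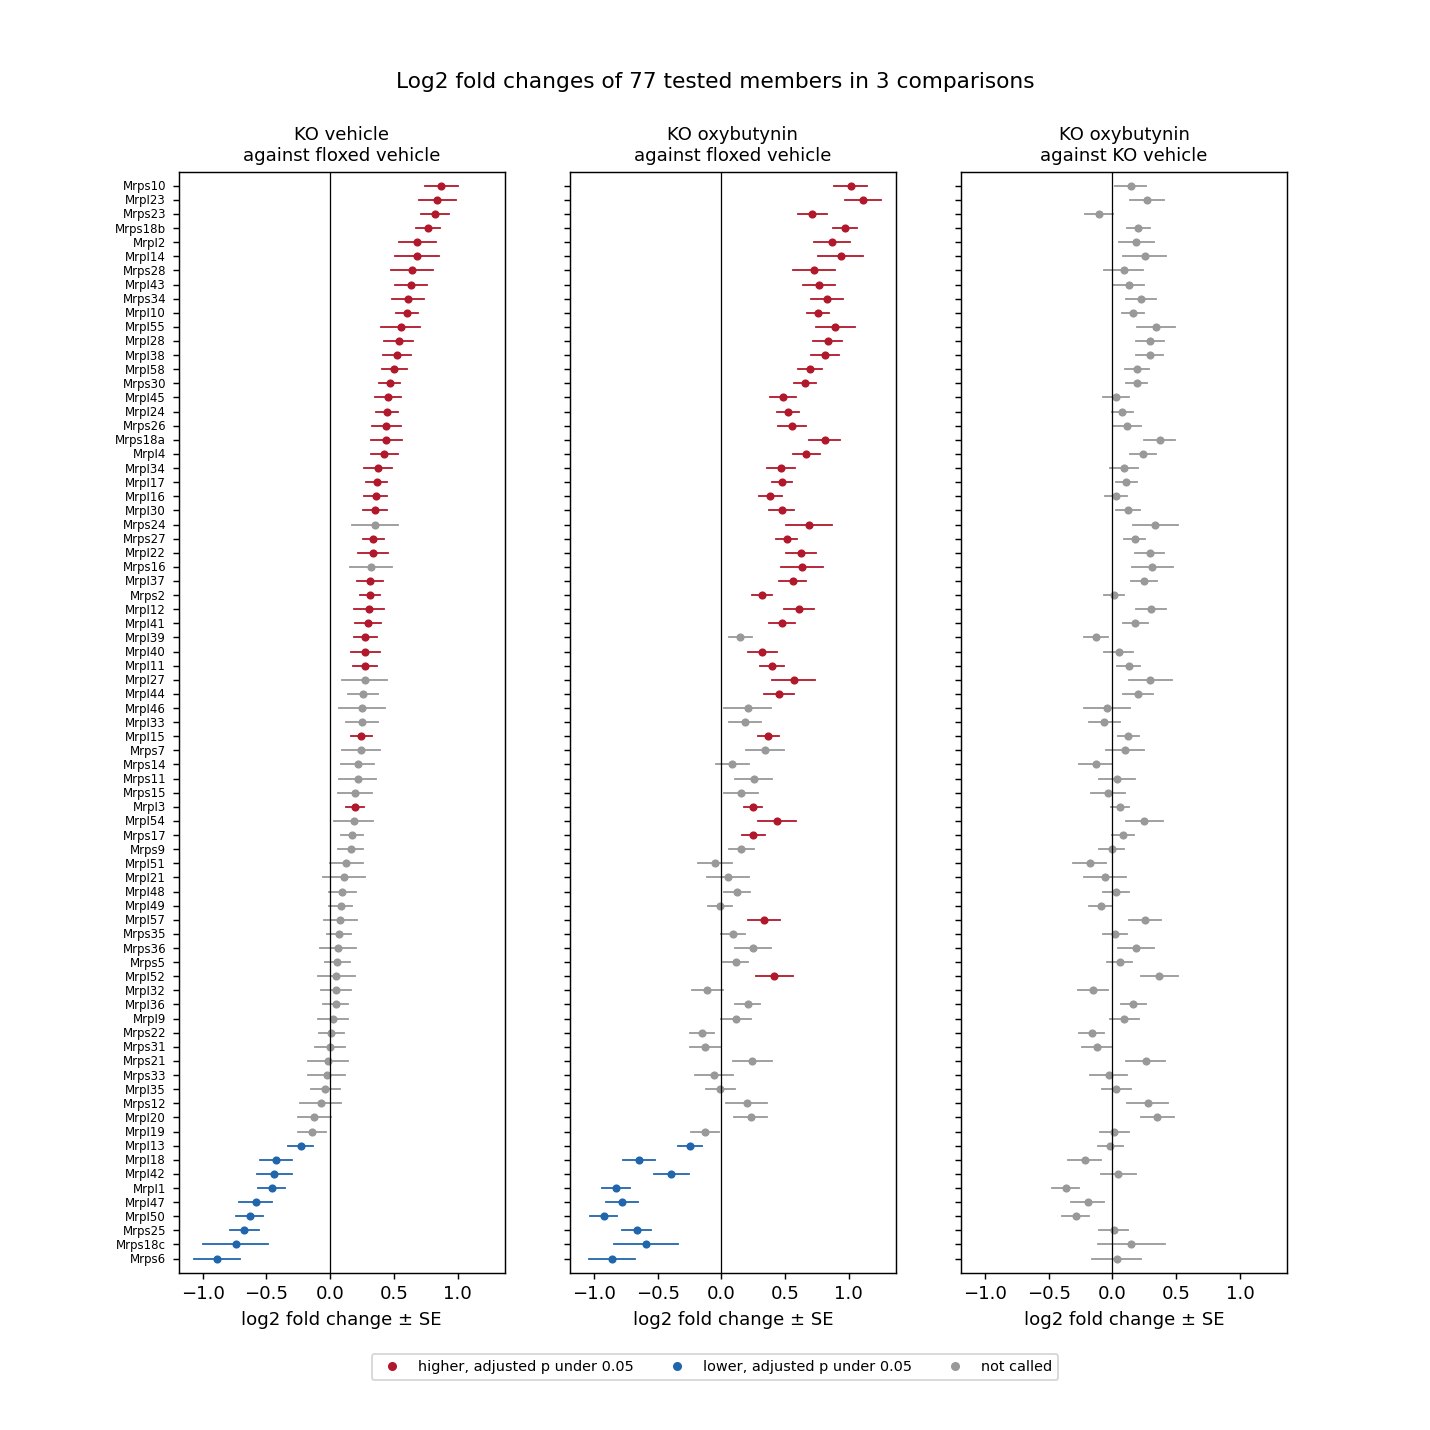
Log2 fold change with SE (horizontal axis) of each of the 77 tested members in 3 comparisons, ordered in every panel by the change of KO vehicle against floxed vehicle, with called members in red (higher) or blue (lower) and the others in grey. Members run from -0.89 to 0.87 in the left panel and from -0.92 to 1.11 in the middle panel, and in the right panel, for oxybutynin within KO cells, all are grey and lie between -0.37 and 0.37.

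Some members have a role of their own. Mrpl12, the stalk protein that also binds the mitochondrial RNA polymerase, had 104, 95.7 and 96.4 CPM in KO oxybutynin and 88.7, 61 and 90.4 CPM in KO vehicle, against 60.6, 66.8 and 67.2 CPM in floxed vehicle. KO vehicle library 2 lay within the floxed range. Its log2 fold change of KO vehicle over floxed vehicle was 0.30 ± 0.12 (SE, adjusted p = 0.0322), and leaving out KO vehicle library 3 gave 0.21 (adjusted p = 0.154). Mrpl10, which anchors the stalk, had 71.6, 67.4 and 69.7 CPM in KO oxybutynin and 65.3, 55 and 66.6 CPM in KO vehicle, against 40.7, 40.8 and 41.7 CPM in floxed vehicle. All KO values of Mrpl10 were above the floxed ones (0.60 ± 0.09, SE, adjusted p = 1.31e-05). Mrpl45, which ties the ribosome to the inner membrane, had 59.9, 54.7 and 51.2 CPM in KO oxybutynin and 57, 45.6 and 59.9 CPM in KO vehicle, against 38.9, 40.5 and 39.4 CPM in floxed vehicle and rose by 0.45 ± 0.10 (SE, adjusted p = 0.000965). Mrpl58, a peptidyl-tRNA hydrolase that rescues stalled ribosomes, had 39, 37.7 and 40.5 CPM in KO oxybutynin and 32.7, 31.3 and 38.5 CPM in KO vehicle, against 23, 25.4 and 24 CPM in floxed vehicle. It rose by 0.50 ± 0.10 (SE, adjusted p = 0.000263), with all KO libraries above all floxed ones. Mrpl32, whose precursor is cut by the m-AAA protease before assembly, had 16.8, 17.8 and 20.6 CPM in KO oxybutynin and 23.3, 19.6 and 18.4 CPM in KO vehicle, against 18.9, 18.4 and 22 CPM in floxed vehicle. Its groups overlapped (0.05 ± 0.12, SE, adjusted p = 0.75). Mrpl44, which in humans is mutated in a cardiomyopathy of infancy, had 21.2, 19.1 and 18.2 CPM in KO oxybutynin and 19.1, 14.1 and 17.8 CPM in KO vehicle, against 14, 14.2 and 14.5 CPM in floxed vehicle. KO vehicle library 2 lay within the floxed range (0.26 ± 0.12, SE, adjusted p = 0.0678).

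The 3 Mrps18 paralogues, which are assembled at different places of the ribosome, were called in both directions. Mrps18a, in the large subunit, had 41.2, 39.8 and 38.6 CPM in KO oxybutynin and 32.8, 23.6 and 36.2 CPM in KO vehicle, against 23.1, 22.1 and 23 CPM in floxed vehicle and rose by 0.44 ± 0.12 (SE, adjusted p = 0.00504). Mrps18b rose and Mrps18c fell, with the values given above. Mrps30, also a large subunit protein despite its symbol, had 54.2, 60.0 and 59.8 CPM in KO oxybutynin and 49.1, 49.5 and 54 CPM in KO vehicle, against 36.6, 38.5 and 35.4 CPM in floxed vehicle. All 3 groups of Mrps30 were apart from each other, and KO vehicle was higher than floxed vehicle by 0.47 ± 0.09 (SE, adjusted p = 0.000142). Mrps12, at the decoding centre, had 17.3, 16.5 and 12.1 CPM in KO oxybutynin and 14.1, 9.24 and 14.8 CPM in KO vehicle, against 12.5, 13.2 and 14.3 CPM in floxed vehicle with groups that overlapped (-0.07 ± 0.16, SE, adjusted p = 0.704). Mrps16, mutated in a human mitochondrial disease, had 16.8, 14 and 12.6 CPM in KO oxybutynin and 13.6, 8.78 and 12.6 CPM in KO vehicle, against 10.9, 7.77 and 9.42 CPM in floxed vehicle. KO vehicle library 2 lay inside the floxed range (0.32 ± 0.17, SE, adjusted p = 0.103). Mrps22, another human disease gene of the small subunit, had 23.2, 23.3 and 25.4 CPM in KO oxybutynin and 29.8, 24.6 and 26 CPM in KO vehicle, against 25.9, 26.3 and 27.5 CPM in floxed vehicle. Its KO vehicle values overlapped the floxed ones (0.01 ± 0.10, SE, adjusted p = 0.937), and its KO oxybutynin values lay below them. Mrps36, of the oxoglutarate dehydrogenase complex, had 13.3, 14.5 and 11.5 CPM in KO oxybutynin and 14.3, 9.36 and 11.1 CPM in KO vehicle, against 11.3, 11.2 and 10.7 CPM in floxed vehicle and was not called (0.06 ± 0.14, SE, adjusted p = 0.724).

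Within the family, transcripts differed widely in level. Per kilobase of exon (CPM per kb, exons of all transcripts merged), the median member stood at 8.62 in floxed vehicle libraries, beside 5.18 for all tested protein-coding genes. The highest levels in floxed vehicle cells were those of Mrpl12 at 42.3 ± 2.41, Mrps21 at 31.1 ± 0.840, Mrpl34 at 28.6 ± 0.461, Mrps27 at 24.7 ± 1.03 and Mrpl10 at 24 ± 0.310 CPM per kb (SD, n = 3 each). Mrps27 and Mrpl10, the last pair, did not differ beyond their spread. The lowest detected were Mrpl33 at 1.14 ± 0.0987, Mrps10 at 1.20 ± 0.130, Mrpl48 at 1.82 ± 0.132 and Mrps25 at 2.11 ± 0.160 CPM per kb (SD, n = 3 each), of which Mrpl33 and Mrps10 overlapped. From Mrpl33 to Mrpl12 the levels spanned 37.3-fold. Merged exon lengths ran from 607 to 8631 bases, and rare long transcripts in the annotation can lower the level per kb of a gene. Mrps21 had 29.3, 29.4 and 22.9 CPM in KO oxybutynin and 28, 16 and 24.3 CPM in KO vehicle, against 22.5, 22.9 and 23.7 CPM in floxed vehicle, and its groups overlapped (-0.02 ± 0.15, SE, adjusted p = 0.929). Mrps27, a pentatricopeptide repeat protein, had 74.6, 71.2 and 75.1 CPM in KO oxybutynin and 61.6, 62.7 and 71.6 CPM in KO vehicle, against 51.2, 54 and 49.8 CPM in floxed vehicle. Its KO values lay above the floxed ones (0.34 ± 0.08, SE, adjusted p = 0.00207). Mrpl34 had 26, 23.5 and 22.4 CPM in KO oxybutynin and 21.1, 20.1 and 26.2 CPM in KO vehicle, against 17.7, 17.2 and 17.2 CPM in floxed vehicle, and its KO values lay above the floxed ones (0.38 ± 0.11, SE, adjusted p = 0.00715). Mrpl33 had 8.69, 10.1 and 9.47 CPM in KO oxybutynin and 10.9, 9.49 and 9.26 CPM in KO vehicle, against 8.98, 7.55 and 8.44 CPM in floxed vehicle, and its KO vehicle values were above the floxed ones without a call (0.25 ± 0.12, SE, adjusted p = 0.0929). Mrpl48, of the central protuberance, had 17.1, 15.3 and 16.1 CPM in KO oxybutynin and 16.2, 15.2 and 16.2 CPM in KO vehicle, against 14.4, 14.1 and 16.1 CPM in floxed vehicle with overlapping groups (0.10 ± 0.10, SE, adjusted p = 0.427).

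The direction of a member's change ran with the base composition of its transcripts. Across the 77 members, the Spearman correlation of the log2 fold change of KO vehicle over floxed vehicle with GC content was 0.46, beside 0.558 across 12976 protein-coding genes. These points share the same libraries and are not independent replicates. Of the 26 members with the lowest GC content (39.8 to 47.6%), 6 rose and 6 fell. The middle 26 (47.7 to 52.4%) had 14 higher and 2 lower. Of the highest 26 (52.5 to 60.8%, 25 tested), 15 rose and 1 fell. Over all tested genes 29.9% rose and 33.4% fell. Shares among all genes of like GC content were not computed, so these counts are not particular to the members. The CPM-weighted GC content of a library ran from 51.28 to 51.56% in KO oxybutynin and from 50.34 to 51.26% in KO vehicle, against 49.29% in all floxed vehicle libraries. After the GC and length trend was removed from each library, the correlation was -0.548 across the members and -0.004 across the protein-coding genes, so the removal that levelled genes in general turned the relation round within the family. Then 16 of the 44 called members were called with the same sign, 12 of the 35 higher ones and 4 of the 9 lower ones. Mrps10 (0.90), Mrpl23 (0.48), Mrps23 (0.41), Mrps18b (0.38), Mrps30 (1.28), Mrps6 (-1.23), Mrpl47 (-0.66) and Mrps25 (-0.40) were among these. Mrpl1 (0.40), Mrpl13 (0.38) and Mrpl12 (-0.28) were called with the opposite sign. The rest were no longer called, among them Mrpl50 (-0.05), Mrpl2 (0.09), Mrps28 (0.19), Mrpl10 (0.13), Mrpl58 (0.15), Mrps18a (-0.01), Mrpl34 (-0.07), Mrpl14 (0.10), Mrps34 (0.05), Mrps27 (0.12), Mrpl39 (0.14), Mrpl42 (-0.11) and Mrps18c (-0.52). Members not called before but called then included Mrpl32 at 1.11 (adjusted p = 4.52e-07), Mrpl33 (0.51), Mrpl48 (0.35), Mrps12 (-0.66), Mrps21 (-0.38), Mrps11 (-0.28) and Mrpl9 (-0.23). Others not named here were called too.

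**Figure D5:**
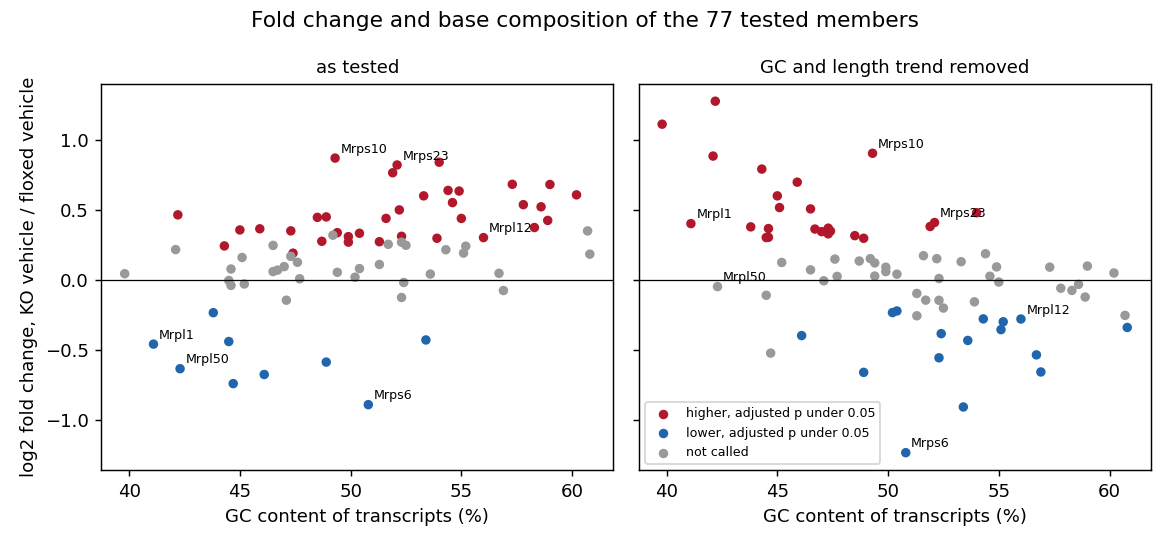
Log2 fold change of KO vehicle over floxed vehicle (vertical axis) against the GC content of a member's transcripts (horizontal axis, %) as tested (left) and with each library's GC and length trend removed (right), for the 77 tested members, with calls in red (higher) and blue (lower). On the left, 6 of the 9 falls are among the 26 members of lowest GC content, as for Mrpl1 (-0.46) and Mrpl50 (-0.63), and on the right Mrpl1 lies at 0.40 and Mrpl50 at -0.05.

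The second comparison asked what oxybutynin does in KO cells, and no member passed the test. By edgeR's quasi-likelihood test 0 of 77 members were called higher (0.00636% of all tested genes were) and 0 lower (0.00636% of all tested genes were), beside 0.0127% of all tested genes in either direction. At an unadjusted p under 0.05, 12 members were higher and 2 lower, together 18.2% of members, beside 26% of all tested genes. DESeq2 called 1 member higher (Mrps18a) and 1 lower (Mrpl1), beside 173 genes higher and 961 lower. These were 1.37% and 7.74% of the genes to which DESeq2 gave an adjusted p. It gave none to Mrps18c, Mrpl57, Mrpl27, Mrps33, Mrpl46, Mrps6 and Mrps28, so these members could not be called there. With limma-voom 0 members were called, beside 2 genes higher and 1 lower. The median log2 fold change of KO oxybutynin over KO vehicle was 0.10, and members ran from -0.37 to 0.37. All 77 tested members lay within 1.3-fold of no change in the edgeR fit. Groups did not overlap for 8 members that were higher (10.5% of all tested genes) and 1 that was lower (11.6% of all tested genes), together 9 members beside 22.1% of all tested genes.

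The members nearest to a call in that comparison were Mrpl1 at -0.37 ± 0.11 (SE, adjusted p = 0.0832), with non-overlapping groups, and Mrps18a at 0.37 ± 0.12 (SE, adjusted p = 0.0981), whose KO oxybutynin libraries all lay above the KO vehicle libraries. Mrpl12 stood at 0.30 ± 0.12 (SE, adjusted p = 0.131) and Mrpl50 at -0.29 ± 0.11 (SE, adjusted p = 0.128). Mrps10 and Mrps6, with the largest rise and the largest fall of KO vehicle against floxed vehicle, stood at 0.14 ± 0.12 and 0.03 ± 0.19 (SE). One library decided the count. Without KO vehicle library 3, 11 members were called higher (Mrpl4, Mrpl58, Mrpl38, Mrps30, Mrps18a, Mrpl28, Mrps18b, Mrpl37, Mrpl20, Mrpl12 and Mrps27) and 2 lower (Mrpl1 and Mrpl50), in a fit that called 1873 of all tested genes higher (11.6%) and 2315 lower (14.4%). Without KO vehicle library 2, 0 members were called and the median was 0.03. Without a filter on low counts, 2 members were called higher (Mrps18a and Mrpl12) and 1 lower (Mrpl1). That fit called 0.92% of its 30103 genes higher and 2.73% lower.

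The third comparison, KO oxybutynin against floxed vehicle, shares its floxed libraries with the first and its KO oxybutynin libraries with the second. By edgeR's quasi-likelihood test 42 members were higher (35.1% of all tested genes were) and 9 lower (36.9% of all tested genes were), together 51 of 77 beside 71.9% of all tested genes, with a median of 0.33 beside 0.0019 over all tested genes. Over the tested protein-coding genes the median was 0.08, and 39.7% were higher and 35.1% lower. Groups did not overlap for 50 higher members (38.9% of all tested genes) and 11 lower ones (40.1% of all tested genes), together 61 members beside 78.9% of all tested genes. With the GC and length trend removed, 33 members were called higher (28.2% of all tested genes) and 16 lower (33.4%). Their median was then 0.14, beside -0.06 over all tested genes and -0.03 over protein-coding genes. Of the 51 members called as tested, 25 were then called with the same sign and 6 with the opposite sign. In the large subunit 31 of 50 rose and 6 fell, and in the small subunit 11 of 26 rose and 3 fell. Mrpl23 rose by 1.11 ± 0.14 (SE, adjusted p = 1.75e-06) and Mrps10 by 1.01 ± 0.13 (SE, adjusted p = 1.73e-06), the 2 members past a 2-fold change. Mrps18b followed at 0.97 ± 0.09 (SE, adjusted p = 5.45e-08). Mrpl14, which faces the small subunit, had 27.5, 24 and 23.3 CPM in KO oxybutynin and 22.5, 13.8 and 26.5 CPM in KO vehicle, against 14.5, 11.7 and 13 CPM in floxed vehicle. KO oxybutynin was wholly above floxed vehicle (0.93 ± 0.17, SE, adjusted p = 0.000119), whereas KO vehicle library 2 lay within the floxed range. Mrpl55 had 25.4, 23.3 and 21.5 CPM in KO oxybutynin and 21.5, 13 and 20.9 CPM in KO vehicle, against 11.8, 12.6 and 13.3 CPM in floxed vehicle. It rose by 0.89 ± 0.15 (SE, adjusted p = 4.39e-05), and Mrpl2 by 0.87 ± 0.14 (SE, adjusted p = 3.26e-05). With the GC and length trend removed, the changes of Mrpl14 (0.09), Mrpl55 (0.17) and Mrpl2 (0.03) were not called.

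Among the falls of KO oxybutynin against floxed vehicle, Mrpl50 stood at -0.92 ± 0.11 (SE, adjusted p = 6.72e-07). Mrps6 stood at -0.86 ± 0.18, Mrpl47 at -0.78 ± 0.13 and Mrps25 at -0.66 ± 0.11 (SE). Mrpl18, of the central protuberance, had 8.48, 8.61 and 7.05 CPM in KO oxybutynin and 10.2, 8.23 and 9.67 CPM in KO vehicle, against 12.5, 11.7 and 13.6 CPM in floxed vehicle. Both KO groups lay below the floxed group, and KO oxybutynin differed from floxed vehicle by -0.64 ± 0.13 (SE, adjusted p = 0.000217). Mrpl18 shares 10.1% of its exon bases with Tcp1 on the opposite strand, which changed by -0.50 in the same comparison. For Mrpl1 the change was -0.82 ± 0.11 (SE, adjusted p = 2.53e-06) as tested and 0.30 with the GC and length trend removed, with a call of opposite sign. Mrpl50 (-0.11), Mrps25 (-0.20) and Mrpl44 (-0.02) were not called with that trend removed, whereas Mrpl32 (1.21) and Mrps36 (0.35) were called higher and Mrps12 (-0.63) lower. Mrps16 (0.63 ± 0.16, SE, adjusted p = 0.00232) and Mrpl44 (0.45 ± 0.12, SE, adjusted p = 0.0022) rose in KO oxybutynin cells, and Mrpl32 (-0.11 ± 0.12), Mrps12 (0.20 ± 0.16), Mrps22 (-0.15 ± 0.10) and Mrps36 (0.25 ± 0.14) were not called (SE) as tested.

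Genes that serve the same ribosome were read from lists. Of 5 mitochondrial ribosomal proteins with other symbols, 2 rose and 1 fell between KO vehicle and floxed vehicle (29.9% of all tested genes rose and 33.4% fell). Gadd45gip1, a large subunit protein also known as CRIF1, had 43.1, 37.5 and 41.6 CPM in KO oxybutynin and 34.7, 26.5 and 37.9 CPM in KO vehicle, against 19, 21.2 and 18.8 CPM in floxed vehicle. All KO values were above the floxed ones (0.75 ± 0.12, SE, adjusted p = 3.74e-05). Aurkaip1, a small subunit protein, rose by 0.62 ± 0.15 (SE, adjusted p = 0.00185), and with the GC and length trend removed it was not called. Ptcd3, a pentatricopeptide repeat protein of the small subunit, had 75.6, 65.5 and 80.3 CPM in KO oxybutynin and 87.4, 108 and 82.6 CPM in KO vehicle, against 146, 147 and 146 CPM in floxed vehicle. Every KO library was below every floxed library (-0.66 ± 0.10, SE, adjusted p = 1.93e-05), but with the GC and length trend removed the value was 0.16. Dap3 (0.17 ± 0.09, SE, adjusted p = 0.113) and Chchd1 (0.06 ± 0.13, SE, adjusted p = 0.72) were not called. In KO oxybutynin against floxed vehicle 3 of the 5 rose and 1 fell (35.1% and 36.9% of all tested genes), and with that trend removed 1 was called higher and 0 lower. In KO oxybutynin against KO vehicle 0 were called by edgeR. At an unadjusted p under 0.05, 2 were higher and 1 lower, beside 26% of all tested genes in either direction. Without KO vehicle library 3, 2 were called higher and 1 lower (11.6% and 14.4% of all tested genes). DESeq2 called 1 of the 5 lower (7.74% of the genes to which it gave an adjusted p). Without a filter on low counts 1 was called higher and 1 lower (0.92% and 2.73% of the genes in that fit).

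Of 25 genes for assembly of the ribosome and maturation of its RNA, 15 rose and 1 fell between KO vehicle and floxed vehicle, with a median of 0.38 (29.9% of all tested genes rose and 33.4% fell). Mtg1, a GTPase of large subunit assembly, had 20.4, 19.8 and 21.7 CPM in KO oxybutynin and 18.5, 21.8 and 20.4 CPM in KO vehicle, against 10.9, 11.2 and 10.1 CPM in floxed vehicle. Its KO values were wholly above the floxed ones (0.91 ± 0.10, SE, adjusted p = 7.71e-07). Mpv17l2 rose by 0.83 ± 0.11 (SE, adjusted p = 4.87e-06), Ngrn by 0.89 ± 0.12 (SE, adjusted p = 6.15e-06) and the pseudouridine synthase homologue Trub2 by 0.62 ± 0.09 (SE, adjusted p = 1.9e-05). With the GC and length trend removed, 8 of the 25 were called higher (25.8% of all tested genes) and 4 lower (33%), and Mpv17l2 was not called. In KO oxybutynin against KO vehicle 0 of the 25 were called. At an unadjusted p under 0.05 there were 3 higher and 2 lower (edgeR), beside 26% of all tested genes in either direction. Without KO vehicle library 3, 3 were called higher and 2 lower (11.6% and 14.4% of all tested genes). DESeq2 called 1 lower (7.74% of the genes to which it gave an adjusted p). The fit without a filter called 1 lower (2.73% of its genes). In KO oxybutynin against floxed vehicle 16 rose and 2 fell (35.1% and 36.9% of all tested genes). With the GC and length trend removed 10 were called higher and 4 lower (28.2% and 33.4%).

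The 15 tested translation factors and mRNA-binding proteins counted 6 higher and 5 lower between KO vehicle and floxed vehicle (29.9% of all tested genes rose and 33.4% fell). With the GC and length trend removed they counted 5 higher and 2 lower (25.8% and 33% of all tested genes). Taco1, a translational activator of a cytochrome c oxidase mRNA, rose by 0.76 ± 0.10 (SE, adjusted p = 6.17e-06), and the elongation factor Tsfm rose by 0.66 ± 0.10 (SE, adjusted p = 2.89e-05). Mtrf1l, a release factor, had 3.10, 3.38 and 5.30 CPM in KO oxybutynin and 3.77, 4.35 and 3.36 CPM in KO vehicle, against 9.19, 9.44 and 9.73 CPM in floxed vehicle. Every KO value lay below every floxed one (-1.30 ± 0.18, SE, adjusted p = 5.61e-06). Guf1, a GTPase that acts on the elongating ribosome, stood at -0.96 ± 0.12 (SE, adjusted p = 2.22e-06) as tested and at 0.11 with the GC and length trend removed. In KO oxybutynin against floxed vehicle 6 rose and 5 fell (35.1% and 36.9% of all tested genes). Among the falls were the initiation factor Mtif2 (-1.10 ± 0.11, SE, adjusted p = 1.26e-07) and the mRNA-binding protein Lrpprc (-0.82 ± 0.09, SE, adjusted p = 4.38e-07). In KO oxybutynin against KO vehicle 0 of the 15 were called. At an unadjusted p under 0.05 there were 0 higher and 2 lower (edgeR), beside 26% of all tested genes in either direction. Without KO vehicle library 3, 1 was called higher and 3 lower (11.6% and 14.4% of all tested genes). DESeq2 called 2 lower (7.74% of the genes to which it gave an adjusted p). The fit without a filter called 2 lower (2.73% of its genes).

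The ribosome's own RNAs had few counts. The large ribosomal RNA mt-Rnr2 had 77, 103 and 346 counts in KO oxybutynin libraries and 16, 115 and 85 in KO vehicle libraries, against 46, 53 and 35 in floxed vehicle libraries. The small ribosomal RNA mt-Rnr1 had 43, 41 and 249 counts in KO oxybutynin and 9, 40 and 56 in KO vehicle, against 29, 28 and 19 in floxed vehicle. KO oxybutynin library 3 was far above the other libraries for both. KO oxybutynin against floxed vehicle was called for mt-Rnr1 (2.03 ± 0.63, SE, adjusted p = 0.00829) and mt-Rnr2 (1.87 ± 0.54, SE, adjusted p = 0.00519), but without KO oxybutynin library 3 the values were 0.53 (adjusted p = 0.291) and 0.82 (adjusted p = 0.103). Nuclear copies can share reads with these genes, and the labels used here do not say how ribosomal RNA was depleted.

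Set beside the promoter letters, calls occurred with and without each motif. Of the 26 members with an ETS core, 11 rose and 2 fell between KO vehicle and floxed vehicle (median 0.25), and of the 43 other members with a promoter window, 19 rose and 6 fell (median 0.25). Of the 13 members with the YY1 core 6 rose and 1 fell, and of the 56 without it 24 rose and 7 fell. Mrpl53, which was not tested, is counted among the 26 and among the 13. Among the 3 members with the NRF1 palindrome, Mrpl9, Mrpl32 and Mrpl39, Mrpl39 rose (0.28 ± 0.09, SE) and 0 fell. Of the 5 with an E-box 2 rose and 1 fell. Over all tested genes 29.9% rose and 33.4% fell between KO vehicle and floxed vehicle, and the counts by motif were not tested.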

How the data were processed

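RNA of 9 mouse myoblast libraries was sequenced. Per the labels' protocols, RNA was purified with Trizol and 2 µg went into a directional NEBNext library. The authors deposited raw counts, whole numbers per gene with no scaling. The submitters' processing notes list STAR (2.7.0e), DESeq2 (1.26.0), Trim Galore (0.6.0), FastQC and cutadapt, with no order, and name GRCm38 and mm10 as builds. What counted the reads, with which strand setting and gene annotation, is not stated there. Every column belonged to a sample, and GENCODE M21 (GRCm38), which held all 55536 gene IDs, gave gene types, exon lengths, overlaps and GC content.

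The deposited counts were tested by edgeR (4.0.16, R 4.3.3) with filterByExpr, TMM scaling and the quasi-likelihood F test, in 1 model of 9 libraries with a mean for each group and 6 residual degrees of freedom. The test was checked on simulated counts. P-values were adjusted by Benjamini-Hochberg over 15720 tested genes, and genes under 0.05 were called. Standard errors (SEs) derive from the F statistic. Depth was 19604971 to 26226949 counts per library, and floors for 0 counts cover counting error only. Replicates were numbered in accession order, which pairs nothing.

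The members and all gene lists were chosen with earlier results of these data known. Members given with values in every library were, per comparison, the 6 largest rises and falls among called members whose groups did not overlap, the 5 highest and lowest levels per kb, members with a role of their own, and the untested member. From other lists up to 4 called genes were named by adjusted p. Overlapping neighbours, the members called when 1 library was left out and the members nearest to a call were chosen after their values were seen. Of 16 listed translation factors 15 were matched. Alternatives were DESeq2 (1.42.0), limma-voom (limma 3.58.1), RLE scaling, library totals, no filter, a mean of at least 1 CPM, only the 2 groups compared, protein-coding genes only, leaving out each library, and removing each library's GC and length trend (mgcv 1.9.3, prior count 2). That trend was estimated without the group labels, so it also takes away any real difference that runs with GC content or length.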

Additional observations from a re-analysis of the deposited data

How the results depend on the processing

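No paired analysis was possible because the labels give the groups no shared replicate numbers. No count of members moved by over 1.5 times with RLE scaling, library totals, limma-voom, a mean of at least 1 CPM, the 2 compared groups alone or protein-coding genes alone. For KO oxybutynin against KO vehicle, DESeq2 called 1 member higher and 1 lower (1.37% and 7.74% of genes with an adjusted p). No filter gave 2 higher and 1 lower (0.92% and 2.73% of its genes). With the GC and length trend removed, 16 members were called lower in KO vehicle than in floxed vehicle (33% of all tested genes). In KO oxybutynin 16 were called lower than in floxed vehicle (33.4% of all tested genes). Leaving out 1 library at a time gave 28 to 49 members higher and 7 to 9 lower in KO vehicle against floxed vehicle. Over all genes tested in those fits, 25.8 to 33.5% were higher and 30.1 to 34.7% lower. For KO oxybutynin against floxed vehicle it gave 38 to 48 higher and 7 to 9 lower (31.5 to 36.7% and 33.5 to 38.1% of genes). For KO oxybutynin against KO vehicle it gave 0 to 11 higher and 0 to 2 lower (0 to 11.6% and 0 to 14.4% of genes). The 11 and the 2 came without KO vehicle library 3. Of the single-gene values under the other alternatives, 1988 kept their side of the threshold, 57 lost and 48 gained a call, and 34 that were called by edgeR or under the alternative changed sign, these 34 with the GC and length trend removed. A change of sign in a value called in neither fit was not counted. The 34 log2 values were, for KO vehicle against floxed vehicle, Ddx28 -0.16, Fastkd2 0.68, Gtpbp10 0.51, Guf1 0.11, Mrm2 -0.55, Mrpl1 0.40, Mrpl12 -0.28, Mrpl34 -0.074, Mrps18a -0.014, Ptcd3 0.16, Rcc1l -0.083, Rpusd4 -0.061 and Tufm -0.29. For KO oxybutynin against floxed vehicle they were Ddx28 -0.31, Fastkd2 0.68, Gfm1 0.17, Gtpbp10 0.41, Guf1 0.31, Malsu1 0.42, Mettl17 -0.41, Mrm2 -0.55, Mrpl1 0.30, Mrpl12 -0.16, Mrpl32 1.21, Mrpl34 -0.29, Mrpl44 -0.021, Mrps12 -0.63, Mrps21 -0.28, Ptcd3 0.11, Rcc1l -0.16, Rpusd4 -0.0023, Slirp 0.13, Taco1 -0.013 and Tufm -0.32. The cause of these changes beyond the removed trend was not tested. The lowest counts limit precision. Mrps18c, at 1.54 to 3.95 CPM, had an SE of 0.25 between KO vehicle and floxed vehicle.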
